A study of Homo sapiens with 6 samples.

Results

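The genes described here are a small family of transcriptional cofactors, the acetyltransferases they bind and the transcription factors they assist. They are CITED1, CITED2 and CITED4, which encode CBP/p300-interacting transactivators, CREBBP and EP300, which encode the coactivators CBP and p300, and TFAP2A and TFAP2C, which encode AP-2 transcription factors. All 7 were found once each by symbol among the 26789 genes of the table, and 4 of them had a mean FPKM of 1 or more over the 6 samples and entered the test. The group was chosen from CITED4, selected on its fall in the same comparison, with its relatives and partners added by function. The change of CITED4 is therefore given as a description and supports nothing further.

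CBP and p300 are large, closely related enzymes that acetylate histones and other proteins and bridge many DNA-bound factors to the transcription machinery. CITED proteins do not bind DNA themselves. They dock on the CH1 domain of CBP and p300 through an acidic carboxy-terminal region, which is also the surface used by the hypoxia-inducible factor HIF-1, and they act as coactivators of AP-2 factors. AP-2 factors are known for their part in neural crest development, the tissue from which neuroblastoma arises.

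The cells were SK-N-SH, an established human neuroblastoma line labelled wild type, and 3 samples received dopamine for 6 h while 3 controls received medium only. All 6 samples share this line, serum-containing culture and total RNA with ribosomal RNA removed. The unit printed with the dopamine dose appears incomplete in the labels, so no dose is given, and the series design text names SH-SY5Y, a subline of SK-N-SH, as the treated cells. Nothing in the labels says that replicates came from separate cultures, so the spread behind the p-values may be technical rather than biological. The study's design concerns the effect of dopamine on proliferation. Per-library values below are listed in the order of replicates 1, 2 and 3.

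The libraries held 19392500 to 24230500 fragments, as recovered from the steps of low FPKM values (FPKM divides a gene's fragments by gene length and by library depth). Markers of the labelled cell type were present: 11 of 12 neuroblastoma markers passed the filter, and their summed level was 352 to 401 FPKM in control and 352 to 404 FPKM in dopamine libraries. The 9 mesenchymal markers summed to 1518 to 1712 FPKM in control and 1483 to 1555 FPKM in dopamine libraries, while the 3 blood cell markers in the table did not exceed a sum of 0.0604 FPKM in any library. The 7 epithelial markers in the table, mostly KRT18, summed to 142 to 176 FPKM in control and 107 to 123 FPKM in dopamine libraries. KRT8, KRT18, KRT19 and CLDN4 passed the filter and none of these 4 passed the adjusted test (limma adjusted p = 0.11 for KRT18), while EPCAM, CDH1 and KRT5 were below the filter. All 4 were lower with dopamine and without overlap between the groups, as were 14.1% of all tested genes. Their median log2 fold change was -0.32, and -0.21 when GC content and transcript length were corrected for. For KRT18 these values were -0.555 and -0.491. The part of these transcripts in the CITED4 result was not tested.

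The promoters of the 2 well-expressed family members are shown first, because CITED4 passed the test and CITED2 did not, while both starts lie in GC-rich sequence. Each line gives the 250 bases before the outermost start in the table (RefSeq, GRCh38.p14), 5′ to 3′ on the gene's own strand, with GC boxes (GGGCGG or its reverse complement CCGCCC) in capitals. The CITED4 window is chr1:40862364-40862613 on the minus strand, and the CITED2 window is chr6:139374649-139374898 on the minus strand.
CITED4: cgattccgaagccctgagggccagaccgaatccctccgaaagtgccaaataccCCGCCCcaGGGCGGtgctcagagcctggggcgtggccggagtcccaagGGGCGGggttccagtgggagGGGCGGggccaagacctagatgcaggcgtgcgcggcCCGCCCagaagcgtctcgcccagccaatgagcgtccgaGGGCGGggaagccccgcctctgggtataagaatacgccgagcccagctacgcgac
CITED2: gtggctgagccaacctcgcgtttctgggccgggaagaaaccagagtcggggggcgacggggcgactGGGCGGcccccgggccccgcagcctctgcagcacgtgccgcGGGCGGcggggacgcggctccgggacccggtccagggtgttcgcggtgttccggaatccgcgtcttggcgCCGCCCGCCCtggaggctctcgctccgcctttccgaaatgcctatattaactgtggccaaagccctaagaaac
The CITED4 window held 6 GC boxes and the CITED2 window 4, and 42.5% of 34943 promoter windows of this length held at least 1. The GC content was 69.2% for CITED4 and 70% for CITED2, against a median of 58.0% over all windows. The AP-2 motif GCCNNNGGC (both strands) occurred 1 time in each of the 2 windows, and in 19.7% of all windows. Of the HIF site core, A or G followed by CGTG, only the form ACGTG was counted. It was found 2 times in the CITED2 window, where the 2 matches overlap on opposite strands, and in none of the CITED4 window. The windows of CITED2 starts 2 and 3 held none. ACGTG occurred in 18.5% of all windows. The form GCGTG was not counted and does occur in the CITED4 window as printed, so no difference in HIF sites is read from this. The full cyclic AMP element TGACGTCA was in none of the windows of the 6 members with a promoter in the table, and in 1.63% of all windows. CCAAT was present 1 time in the CITED4 window, 70 bases before the start, and in 32.0% of all windows. TFAP2C was not searched. These matches describe letters in a window and say nothing of binding.

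CITED4 was the second most abundant of the 7 genes and the only one of the 4 tested members that was lower with dopamine. Its FPKM was 24.1, 25.1 and 25.5 in the control libraries, and 14.7, 17.7 and 15.0 in the dopamine libraries. The groups did not overlap, and the highest dopamine value, in replicate 2, was well under the lowest control value. Of all tested genes 14.1% had groups that did not overlap and were lower with dopamine. The means were 24.9 ± 0.732 and 15.8 ± 1.68 FPKM (SD, n = 3 per group), and the fold change was 0.640 on the log2(FPKM + 0.5) scale, a log2 fold change of -0.64 (SE 0.09, 95% interval -0.85 to -0.44, limma). CITED4 had the eleventh smallest p among 11791 genes tested and was 1 of 2 genes past the adjusted threshold that were lower with dopamine, its adjusted p being 0.0487 (limma, two-sided, Benjamini-Hochberg adjustment). Of all tested genes 0.102% passed in either direction and 0.017% passed with a lower level. Since CITED4 was picked for this result, nothing is read from it.

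CITED4 (ENSG00000179862.5, hg19 chromosome 1, 41326729 to 41328018) is listed with a span of 1290 bases. With this span taken as its length, as for a single exon, its FPKM was turned back into fragments with the recovered library totals. This gave 706, 786 and 680 fragments in the control libraries, and 392, 444 and 415 in the dopamine libraries. The unrounded values lay between 679.97 and 785.96 in control and between 391.98 and 443.98 in dopamine libraries, each within 0.05 of a whole number, although CITED4 was not used to find the totals. Counting alone gives an error of 3.57 to 3.83% for a control library and 4.75 to 5.05% for a dopamine library. The samples are bulk RNA, so fewer cells with the transcript and less transcript per cell cannot be told apart. The nearest listed gene, the antisense transcript RP5-1066H13.4, begins 1567 bases away and was at 0 in 5 of 6 libraries, with 0.1025 FPKM in dopamine replicate 1, so no listed gene overlaps CITED4.

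**Figure D1:**
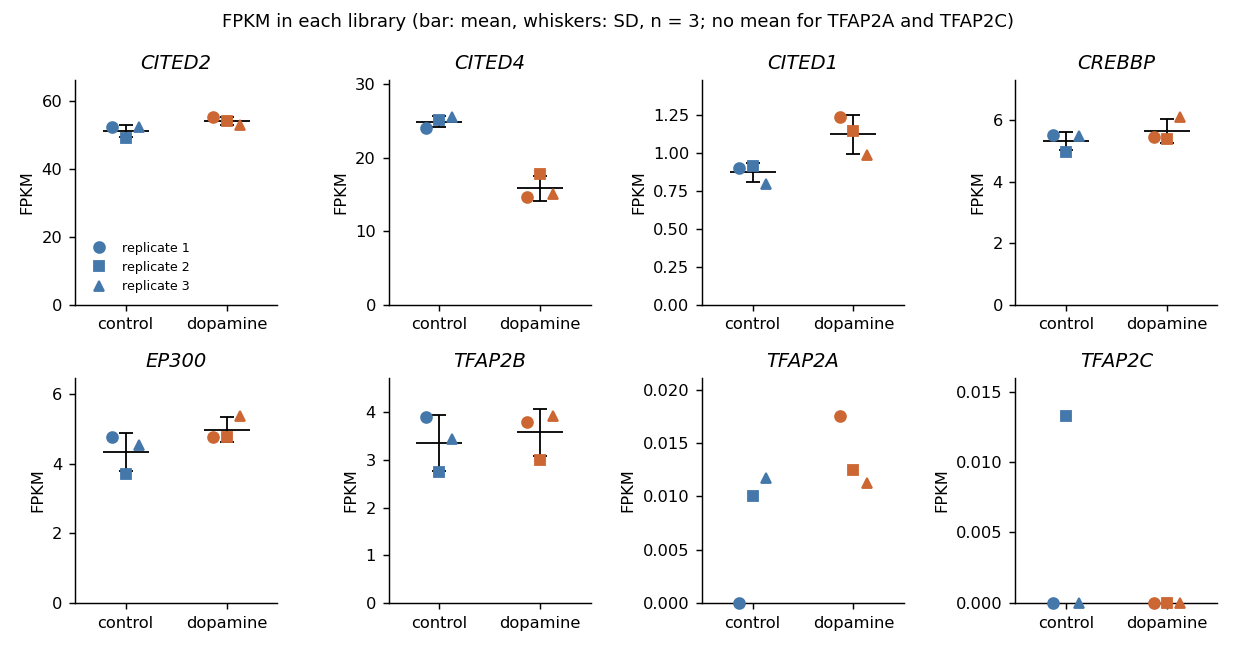
FPKM of the 7 genes and of TFAP2B (vertical axes, from 0, each with its own scale) in the control and dopamine libraries. Each symbol is 1 library, the bar is the mean of 3 and the whiskers its SD. CITED4 stands at 24.1 to 25.5 FPKM in control and 14.7 to 17.7 FPKM with dopamine, while CREBBP, EP300 and TFAP2B overlap between groups and TFAP2A and TFAP2C lie at or near 0.

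CITED2, which encodes the family member best known for competing with HIF-1 for CBP and p300, had the highest level of the 7. It stood at 52.4, 49.3 and 52.4 FPKM in the control libraries and at 55.4, 54.1 and 52.9 FPKM in the dopamine libraries. The 3 dopamine values all lay above the 3 control values, the nearest pair being control replicate 3 and dopamine replicate 3. Of all tested genes 38.4% had groups that did not overlap, 2872 of the 11791 being higher with dopamine, so this separation is common in these libraries. The means were 51.4 ± 1.81 and 54.1 ± 1.22 FPKM (SD, n = 3 per group), a log2 fold change of 0.08 (SE 0.07, limma adjusted p = 0.447) with a 95% interval of -0.08 to 0.23. Its sign turned to -0.038 after median-of-ratios scaling and to -0.078 when GC content and transcript length were corrected for. CITED2 (ENSG00000164442.8, hg19 chromosome 6, 139693393 to 139695757) has no other listed gene within 5000 bases.

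CITED1, the founding member of the family, was low. It stood at 0.900, 0.915 and 0.797 FPKM in the control libraries and at 1.23, 1.14 and 0.983 FPKM in the dopamine libraries. The dopamine values again lay above the control values without overlap, but the mean over all 6 libraries fell just under 1 FPKM, so CITED1 was below the filter. With the filter at 0.3 FPKM its log2 fold change was 0.24 (SE 0.13, limma adjusted p = 0.251 over 15278 genes). In hg19 its span on chromosome X (71521488 to 71527037) overlaps 1289 bases at the end of PIN4, which stood at 4.84 to 6.75 FPKM, and whether the authors counted by strand is not given in these sources. A part of the CITED1 fragments may therefore be shared with PIN4.

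The order of the 3 CITED genes was the same in every library, CITED2 above CITED4 above CITED1. What differed was the distance between CITED2 and CITED4. The ratio of CITED4 to CITED2 was 0.460, 0.510 and 0.486 in the control libraries and 0.265, 0.328 and 0.284 in the dopamine libraries. This ratio is free of the scaling of a library, but not of a dependence on GC content. The CITED4 transcript is 73.5% G and C, against 47.9% for CITED2. Without a GC and length correction the log2 fold changes were -0.643 for CITED4 and 0.075 for CITED2. With it they were -0.463 and -0.078. As a share of the summed CITED level, CITED4 made up 32.3 ± 1.13% in control and 22.2 ± 1.90% with dopamine (SD, n = 3 per group). The summed level itself was 77.2 ± 1.71 and 71.1 ± 2.03 FPKM. Like the change of CITED4, these ratios are a description.

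The coactivator genes were expressed at similar levels to each other. CREBBP (ENSG00000005339.8, hg19 chromosome 16, 3775055 to 3930727) stood at 5.51, 4.98 and 5.48 FPKM in the control libraries and at 5.46, 5.38 and 6.10 FPKM in the dopamine libraries. The groups overlapped, and the mean went from 5.32 ± 0.298 to 5.65 ± 0.396 FPKM (SD, n = 3 per group), a log2 fold change of 0.08 (SE 0.10, limma adjusted p = 0.597). The 95% interval of this difference, -0.15 to 0.30, covers a fold between 0.902 and 1.23. The sign of CREBBP turned to -0.028 after median-of-ratios scaling and to -0.051 after quantile normalization.

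EP300 (ENSG00000100393.9, hg19 chromosome 22, 41487790 to 41576081) stood at 4.78, 3.72 and 4.53 FPKM in the control libraries and at 4.77, 4.76 and 5.38 FPKM in the dopamine libraries. Control replicate 2 was the lowest library for both coactivators and dopamine replicate 3 the highest. The groups overlapped for EP300 too. The mean of EP300 went from 4.34 ± 0.555 to 4.97 ± 0.357 FPKM (SD, n = 3 per group), a log2 fold change of 0.18 (SE 0.12, 95% interval -0.09 to 0.45, limma adjusted p = 0.295). Within each library CREBBP was above EP300, by a ratio of 1.13 to 1.34. The ratio averaged 1.23 ± 0.0957 in control and 1.14 ± 0.00833 in dopamine libraries. The group ranges of the genes are separate in control, at 4.98 to 5.51 for CREBBP against 3.72 to 4.78 FPKM for EP300, and just meet with dopamine. EP300 overlaps the listed antisense genes RP1-85F18.6 and RP1-85F18.5, neither of which exceeded 0.632 FPKM in any library.

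The AP-2 members were at or near 0. TFAP2A was listed at 0, 0.010 and 0.0117 FPKM in the control libraries and at 0.0176, 0.0125 and 0.0113 FPKM in the dopamine libraries. For its longest GENCODE transcript 1 fragment is worth 0.0108 to 0.0135 FPKM in these libraries, so these values stand for a few fragments at most. TFAP2C was listed at 0 in 5 libraries and at 0.0133 FPKM in control replicate 2. Both were below the filter, and no difference between the groups was detectable at this depth: with no filter the log2 fold change was 0.019 for TFAP2A and -0.013 for TFAP2C (limma adjusted p = 0.781 and 0.85).

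Another AP-2 gene was the one with appreciable transcript. TFAP2B, which encodes AP-2 beta, a factor linked to sympathetic neuron development, stood at 3.91, 2.75 and 3.44 FPKM in the control libraries and at 3.80, 3.01 and 3.93 FPKM in the dopamine libraries. Its groups overlapped, with means of 3.36 ± 0.585 and 3.58 ± 0.498 FPKM (SD, n = 3 per group, limma adjusted p = 0.708). TFAP2E averaged 0.141 FPKM in control and 0.250 FPKM in dopamine libraries and was below the filter, and TFAP2D was not analysed here. The AP-2 inhibitor genes KCTD1 (2.11 ± 0.339 and 2.20 ± 0.160 FPKM) and KCTD15 (2.91 ± 0.295 and 3.15 ± 0.256 FPKM, SD, n = 3 per group) did not pass either (limma adjusted p = 0.786 and 0.575). Of these 3 tested AP-2 partners none had an unadjusted p under 0.05, against 32.5% of all tested genes.

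The lower level of CITED4 was set beside the base composition of its transcript. The CITED4 transcript is 73.5% G and C, and of the 11579 tested genes with a known GC content 4 others reached or exceeded it. The libraries differed in how levels depended on GC content. The slope of a library's deviation from the gene means, per 10 points of GC content, came to 0.02, 0.11 and 0.22 (log2) in the control libraries and -0.03, -0.06 and -0.26 in the dopamine libraries. The groups' slopes therefore did not overlap.

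Over all tested genes the median log2 fold change was 0.42 for the 1545 genes under 40% GC, -0.005 for the 1997 genes from 50 to 55%, and -0.22 for the 46 genes of 70% or more. Of these 46, 87.0% had a lower mean with dopamine. CITED4 was below their median, and 2 of the 46 had a lower fold change. When each library was corrected for GC content and transcript length, the log2 fold change of CITED4 was -0.46 (SE 0.08, limma adjusted p = 0.0945), and with GC content alone corrected for it was also -0.46 (SE 0.08, limma adjusted p = 0.106). The corrected log2 values were 4.52, 4.55 and 4.66 in control and 3.95, 4.21 and 4.18 in the dopamine libraries. How much of the drop belongs to the treatment and how much to the GC dependence of the libraries cannot be told apart, since both follow the groups and few genes lie near the composition of CITED4. The other members have transcripts of more usual composition: 47.9% GC for CITED2, 49.4% for TFAP2A, 50.5% for TFAP2C, 52.0% for EP300, 55.8% for CREBBP and 61.6% for CITED1.

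**Figure D2:**
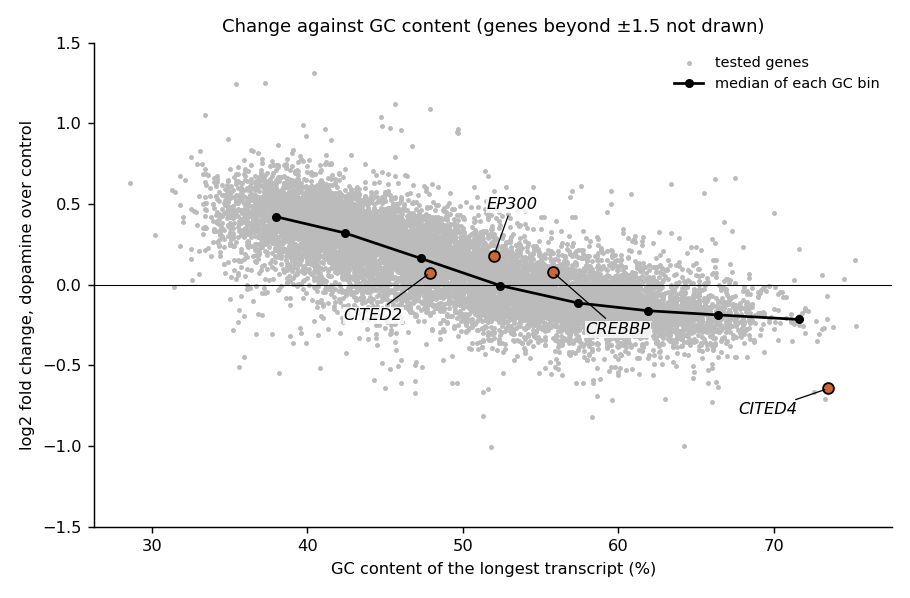
Log2 fold change (vertical axis, dopamine over control) against the GC content of the longest transcript (horizontal axis, percent). Grey points are tested genes, the line joins the medians of the GC bins, and the 4 tested members are marked. The medians run from 0.42 under 40% GC to -0.22 at 70% or more, and CITED4 lies at the GC-rich end, below the line, at 73.5% and -0.64.

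The call on CITED4 stood close to its threshold. Among 22 alternative settings its log2 fold change ran from -0.76 to -0.46 and was never positive, but it passed in 9 of them and missed in 13. Leaving out control replicate 2, control replicate 3, dopamine replicate 1 or dopamine replicate 3 ended the call (limma adjusted p = 0.255, 0.166, 0.124 and 0.185), each with fewer samples, while without control replicate 1 or dopamine replicate 2 it passed (limma adjusted p = 0.0304 and 0.0392).

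**Figure D3:**
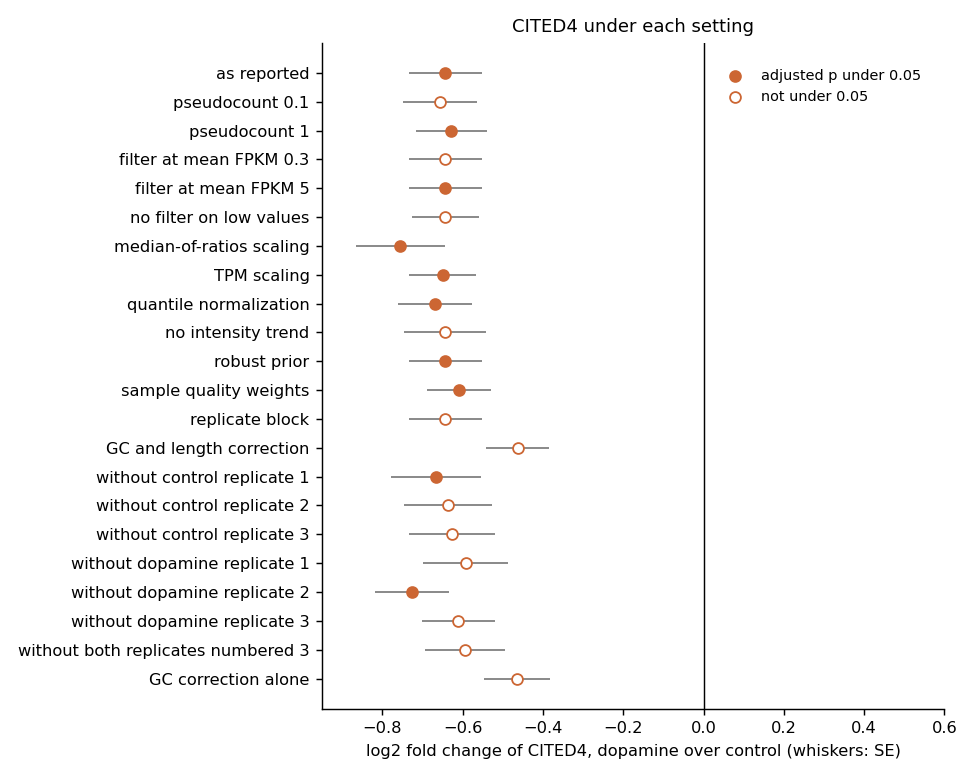
Log2 fold change of CITED4 (horizontal axis, dopamine over control) under each setting (rows), with the SE as whiskers. Filled points passed an adjusted p of 0.05 and open points did not. All values lie between -0.76 and -0.46, and the 2 GC corrections give the smallest drop.

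The genes whose levels ran most like CITED4 over the 6 libraries were DDN (Pearson r = 0.996), SPATA33 (0.994), TTLL11 (0.993), PTGIR (0.992) and NGEF (0.992), out of 10266 other protein-coding genes tested. A coefficient of 0.95 or more was reached by 108 genes. The coefficient spans both groups, so it includes the difference for which CITED4 was picked, and it is a description. DDN went from 1.31 ± 0.0381 to 0.888 ± 0.115 FPKM and NGEF from 1.64 ± 0.0976 to 1.10 ± 0.112 FPKM (SD, n = 3 per group). None of the 5 passed the adjusted threshold, and their transcripts held 53.2 to 64.1% G and C.

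Other acetyltransferase genes were compared as relatives in function of CREBBP and EP300. Of 12 tested none passed, 3 had an unadjusted p under 0.05 and all 3 were higher with dopamine. Over all 11791 tested genes 24.4% had such a p and a higher level, and 8.05% such a p and a lower level, so a share of 3 in 12 is near that of the table. After the GC and length correction these shares were 8.37% and 8.45% of 11579 genes. The median of the 12 log2 fold changes, 0.31, compares with 0.08 for the whole tested table, and it was 0.06 against -0.001 after the correction, when no member had an unadjusted p under 0.05. The 3 were NCOA1 (3.54 ± 0.657 and 4.75 ± 0.952 FPKM, limma adjusted p = 0.147) and NCOA3 (1.75 ± 0.325 and 2.44 ± 0.552 FPKM, limma adjusted p = 0.154), which encode nuclear receptor coactivators, and HAT1 (2.30 ± 0.696 and 3.26 ± 0.562 FPKM, limma adjusted p = 0.154), whose enzyme acetylates new histone H4 (SD, n = 3 per group). KAT6A stood at 2.699 ± 0.358 and 3.52 ± 0.651 FPKM (limma adjusted p = 0.159). The corrected log2 fold changes were 0.102 for NCOA1, 0.071 for NCOA3, 0.077 for HAT1 and 0.092 for KAT6A.

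The opposing enzymes, the histone deacetylases, had 10 tested genes, of which none passed. An unadjusted p under 0.05 was found for 2 higher and 1 lower gene, against 32.5% of all tested genes in either direction, and the median log2 fold change was 0.03. HDAC2 stood at 3.13 ± 0.756 and 4.51 ± 0.751 FPKM (limma adjusted p = 0.12), HDAC8 at 2.88 ± 0.245 and 3.65 ± 0.220 FPKM (limma adjusted p = 0.126) and HDAC7, lower with dopamine, at 12.0 ± 0.236 and 10.1 ± 0.779 FPKM (limma adjusted p = 0.127; SD, n = 3 per group). HDAC5 stood at 7.04 ± 0.597 and 6.09 ± 0.718 FPKM (limma adjusted p = 0.244). After the correction the median was -0.06, with 2 lower genes, HDAC7 and HDAC9, under an unadjusted 0.05. Of all genes 8.45% were lower with such a p. HDAC9 went from 0.128 to -0.242 (log2). HDAC8 then turned from 0.298 to -0.071 and HDAC2 went from 0.477 to 0.060, while HDAC7 stood at -0.130 and HDAC5 at -0.049 (log2).

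Transcription factors that recruit CBP or p300 numbered 28 tested genes, and none passed. An unadjusted p under 0.05 was found for 6 higher and 4 lower genes, against 24.4% and 8.05% of all tested genes, with a median log2 fold change of 0.24. After the correction this held for 1 higher and 1 lower gene, against 8.37% and 8.45%, with a median of -0.02. CREM, a cyclic AMP response factor, had the smallest p and stood at 1.51, 2.01 and 1.63 FPKM in the control and 2.59, 2.91 and 3.09 FPKM in the dopamine libraries. This was a log2 fold change of 0.60 (SE 0.13, limma adjusted p = 0.11), and of 0.26 (limma adjusted p = 0.327) after the correction. STAT2, an interferon signalling factor known to bind the CH1 domain, stood at 9.41 ± 0.574 and 11.5 ± 0.524 FPKM (limma adjusted p = 0.111) and NFE2L2, the NRF2 gene of the antioxidant response, at 4.64 ± 1.30 and 6.84 ± 0.782 FPKM (limma adjusted p = 0.113; SD, n = 3 per group). Their log2 fold changes went from 0.277 to 0.204 for STAT2 and from 0.540 to 0.310 for NFE2L2 with the correction.

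The HIF pathway meets the CITED proteins at the CH1 domain. None of its 11 tested genes passed, 4 had an unadjusted p under 0.05, all higher with dopamine, against 24.4% of all tested genes, and the median log2 fold change was 0.23. After the correction the median was 0.06, with 1 gene under 0.05. EPAS1, which encodes HIF-2 alpha, stood at 47.4, 42.9 and 45.4 FPKM in control and 54.2, 56.4 and 57.9 FPKM in the dopamine libraries, without overlap. Its log2 fold change was 0.31 (SE 0.07, limma adjusted p = 0.11) and 0.30 (SE 0.05, limma adjusted p = 0.0948) after the correction. HIF1A stood at 18.1, 13.8 and 9.74 FPKM in control and 17.7, 20.005 and 26.5 FPKM in the dopamine libraries, so its groups overlapped. Its log2 fold change was 0.63 (limma adjusted p = 0.113) and 0.19 after the correction (limma adjusted p = 0.352). The oxygen sensor gene EGLN1 (4.87 ± 0.917 and 6.64 ± 0.799 FPKM) and VHL, whose product marks HIF for degradation (11.2 ± 0.505 and 13.3 ± 0.649 FPKM, SD, n = 3 per group), did not pass either (limma adjusted p = 0.116 and 0.117). Their log2 fold changes of 0.418 and 0.236 were 0.151 and 0.060 after the correction.

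HIF target genes were examined because HIF and the CITED proteins use the same coactivator surface. Of 22 tested none passed, an unadjusted p under 0.05 was found for 8 higher genes and 1 lower gene, against 24.4% and 8.05% of all tested genes, and the median log2 fold change was 0.07. After the correction 4 were higher and 2 lower at this level, against 8.37% and 8.45%, with a median of 0.03. MXI1, a MYC antagonist gene, stood at 2.52 ± 0.240 and 3.64 ± 0.521 FPKM and LDHA, a lactate dehydrogenase gene, at 92.5 ± 7.57 and 115 ± 9.94 FPKM. The mitophagy gene BNIP3L stood at 4.54 ± 0.989 and 6.73 ± 0.962 FPKM and CA12, a carbonic anhydrase gene, at 15.3 ± 0.691 and 18.7 ± 1.43 FPKM (SD, n = 3 per group; limma adjusted p = 0.11 for each of the 4). With the correction the log2 fold change went from 0.454 to 0.160 for MXI1, from 0.311 to 0.038 for LDHA, from 0.531 to 0.125 for BNIP3L and from 0.277 to 0.196 for CA12. The 4 higher genes under 0.05 after the correction were CA12, DDIT4 (from 0.237 to 0.341), VEGFA (from 0.218 to 0.253) and BNIP3 (from 0.257 to 0.222). The 2 lower ones were ENO1 (-0.200 before and after) and ALDOA (from -0.237 to -0.199).

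The counts of genes past the adjusted threshold in the acetyltransferase, deacetylase, binding factor and HIF lists, each 0 as given above, changed in at most 2 of the other settings. With sample quality weights 7 of the CBP or p300 binding factors, 4 HIF pathway genes, 7 HIF target genes and 2 deacetylase genes passed. Without control replicate 1 these counts were 5, 3, 4 and 1, and 2 acetyltransferase genes passed. Of the 4 tested epithelial markers 1 passed after quantile normalization, and 2 passed with the weights and without control replicate 1. Over all genes 2706 passed with the weights and 2177 without that library, against 12.

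Of the genes reported as AP-2 targets in other cells 7 of 12 in the table were tested. HMOX1, the heme oxygenase gene that answers to many stresses, rose from 33.0 ± 4.74 to 429 ± 39.5 FPKM (SD, n = 3 per group, limma adjusted p = 6.06e-07). HMOX1 had the smallest p of all 11791 tested genes, of which 0.102% passed. The other 6 AP-2 target genes missed the threshold. CDKN1A, the p21 gene, stood at 231 ± 8.83 and 192 ± 11.8 FPKM (limma adjusted p = 0.11), IGFBP5 at 4.38 ± 0.321 and 4.81 ± 0.215 FPKM and the gelatinase gene MMP2 at 233 ± 8.15 and 227 ± 24.6 FPKM (SD, n = 3 per group; limma adjusted p = 0.411 and 0.755). An unadjusted p under 0.05 was found for 1 higher and 1 lower gene, against 24.4% and 8.05% of all tested genes. The median log2 fold change of the 7 was 0.02. After the correction there was again 1 higher and 1 lower gene, against 8.37% and 8.45%, with a median of 0.06. This list was written with earlier results of these data known. ERBB2, ERBB3, ESR1, KIT and TGFA were below the filter.

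**Figure D4:**
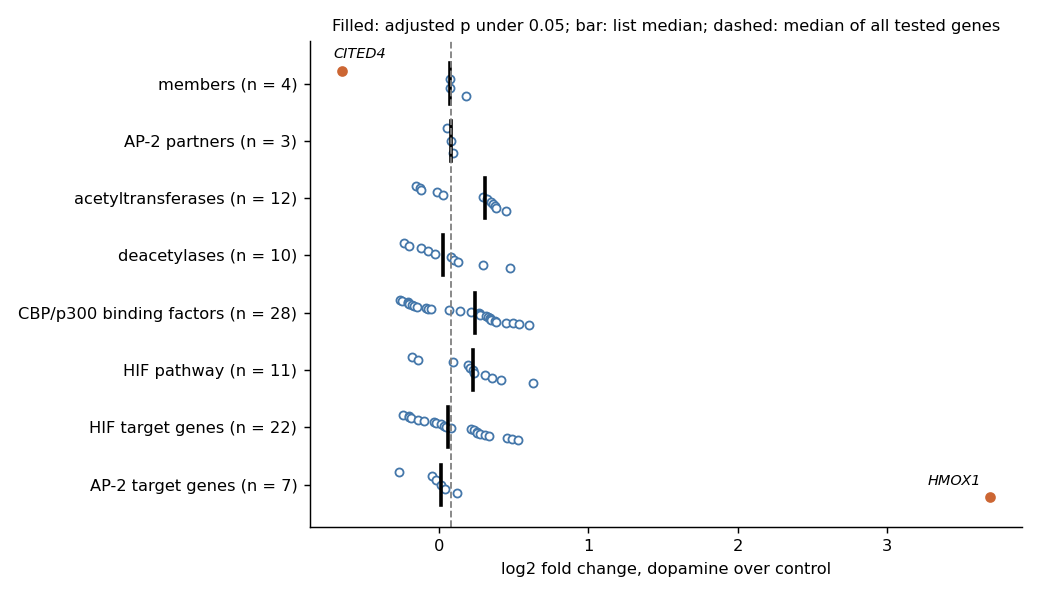
Log2 fold change (horizontal axis, dopamine over control) of each tested gene in the 4 tested members and the related lists (rows). Bars are list medians, the dashed line is the median of all tested genes at 0.08, and filled points passed an adjusted p of 0.05. CITED4 and HMOX1 are the filled points, and all other genes drawn did not pass.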

How the data were processed

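RNA of 6 SK-N-SH samples was measured. A single table, deposited by the authors, holds FPKM for 26789 genes on hg19. STAR 2.7.1a, HTSeq 0.11.2, DESeq2 1.40.2 and FastQC 0.11.9 are named in the submitters' processing notes without a role. The annotation, the strand setting and the way FPKM was made are not given in these sources. Groups came from the sample titles.

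The 11791 genes averaging at least 1 FPKM were compared as log2(FPKM + 0.5) with limma 3.58.1 in R 4.3.3, a moderated test across all genes and an intensity trend (Benjamini-Hochberg adjustment, threshold 0.05, two-sided), which was tested on simulated data. Fold changes of low genes are understated on this scale. The simulated noise was drawn independently for each gene, so errors shared between genes, such as a GC dependence of a library, were not tested. Library totals were recovered from pseudogenes spanning 150 to 1500 bases, taken as single exons. With them 92.6 to 94.1% of values under 30 fragments were within 0.03 of a whole number. Intervals on fragments cover counting error only.

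GC content and length were those of the longest GENCODE 29 transcript, matched by gene identifier for 98.2% of tested genes (11579), with no coordinates taken. The correction subtracted a loess fit (span 0.5) from each library. Promoter windows came from RefSeq (GRCh38.p14) by symbol for 6 of the 7 genes, and TFAP2C was not searched.

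The members and lists were chosen with earlier results of these data known. Named genes were the 7 members, up to 4 genes with the smallest p of each list and the 5 genes most correlated with CITED4, and the markers and neighbouring genes were added. Deacetylase and HIF target genes with an unadjusted p under 0.05 after the GC and length correction were also named. Some genes that this rule names are not reported here.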

Additional observations from a re-analysis of the deposited data

How the results depend on the processing

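The count of genes past the threshold, 12 as reported, was 6 with no filter on low values, 27 after quantile normalization, 5 with no intensity trend, 2706 with sample quality weights, 26 after the GC and length correction, 25 after the GC correction alone (chosen after seeing the data) and 6 at a threshold of 0.01. With single replicates left out it ran from 3 (without control replicate 2) to 2177 (without control replicate 1), and it was 7 without both replicates numbered 3. The cause of these differences was not tested. Settings that leave out libraries also have fewer samples.

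CITED4 kept its direction in 22 of 22 settings and missed the threshold in 13. Its log2 fold change and limma adjusted p were -0.66 and 0.0519 with a pseudocount of 0.1, -0.64 and 0.0547 with the filter at 0.3, -0.64 and 0.152 with no filter, -0.64 and 0.116 with no intensity trend, -0.46 and 0.0945 after the GC and length correction, -0.46 and 0.106 after the GC correction alone, and -0.64 and 0.0487 against a threshold of 0.01. With single replicates left out it ran from -0.73 to -0.59, and without both replicates numbered 3 it was -0.59 (limma adjusted p = 0.201).

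With a replicate block, the log2 fold change of CITED4 was -0.64 (limma adjusted p = 0.228) and 3 genes passed. The labels do not say whether the replicate numbers pair the samples. Same-numbered deviations correlated at -0.20, 0.28 and -0.37, and differently numbered ones at -0.38 to 0.42. With 3 libraries per group these values cannot decide it, so the block is given only here. CITED2 turned to -0.038 (median-of-ratios), -0.078 (GC and length) and -0.068 (GC alone), and CREBBP to -0.028 (median-of-ratios) and -0.051 (quantile). EP300 kept its direction in the 21 settings that tested it. Median-of-ratios scaling moved the median change over all genes from 0.08 to -0.02 (log2).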
